A study of Mus musculus with 6 samples.

Results

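Eph receptors and ephrins were followed in RNA-seq of the mouse tailbud with and without a transgene encoding the nuclear receptor Nr6a1. The 10 genes described were the rows of the count table named Epha1, Epha2, Epha4, Epha5, Epha7, Ephb2, Ephb3, Efna5, Efnb1 and Efnb2, of 54134 genes in all. The rule names genes and uses no measured value, but the genes were picked with earlier results of these data known. The remaining 12 genes of the family (Epha3, Epha6, Epha8, Epha10, Ephb1, Ephb4, Ephb6, Efna1, Efna2, Efna3, Efna4 and Efnb3) are given beside them.

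Eph receptors are receptor tyrosine kinases, and their ephrin ligands are themselves held on the surface of neighbouring cells, so that signalling needs cell contact and can run into either cell. EphA receptors mostly bind the ephrin-A ligands, which are anchored by a lipid, and EphB receptors mostly bind the ephrin-B ligands, which cross the membrane and can signal through their own tails. In the elongating body axis the system is known for cell repulsion and sorting at forming somite boundaries, for closure of the neural tube and gut, and for separating arteries from veins.

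Each of the 6 libraries came from the tailbud of a separate E10.5 C57BL/6 embryo, dissected as all tissue behind the last somite. The wildtype group (n = 4) held embryos without the transgene, and the Cdx2P:Nr6a1 group (n = 2) held transient transgenic embryos made by pronuclear injection, in which the Cdx2 promoter drives the long isoform of Nr6a1. There was no stable line, so each transgenic embryo was its own founder, with its own insertion. The question was which genes change when Nr6a1 is kept on in the tailbud beyond its normal time.

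Total counts ran from 44073460 to 67183802 a library. Nr6a1 itself, the check of the labels, was at 3.905, 5.175, 5.526 and 6.894 CPM (counts scaled to a library total of 1000000) in the wildtype libraries and at 23.39 and 33.76 in the transgenic ones, a log2 fold change of 2.41 ± 0.20 (SE; edgeR quasi-likelihood test, Benjamini-Hochberg adjusted p = 0.001325). Markers of neuromesodermal progenitors and of presomitic mesoderm were detected in every library, with 8 of 8 genes passing the filter on low counts in each list. Transcripts of Y-linked genes were abundant in wildtype replicate 3 and Cdx2P:Nr6a1 replicate 2 (209.2 and 179.6 CPM) and at most 0.08895 CPM in the others, so each genotype held embryos of both kinds. The 10 genes were summed to between 864.9 and 931.4 CPM in wildtype and to 884.6 and 969.2 CPM in the transgenic libraries.

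Epha5, Ephb3 and Ephb2 are the genes on which the comparison turned, and their promoters are shown with that of Epha2, in which the search described next found a match. The sequences are from RefSeq on build GRCm38.p6 and lie upstream of the start site and outside the exons counted here, at chr5:84417383-84417632 (reverse strand) for Epha5, chr16:21204545-21204754 (forward) for Ephb3, chr4:136836013-136836262 (reverse) for Ephb2 and chr4:141300971-141301220 (forward) for Epha2. Each reads 5′ to 3′ on the strand of its gene, with capitals marking AGGTCA in either orientation.
Epha5: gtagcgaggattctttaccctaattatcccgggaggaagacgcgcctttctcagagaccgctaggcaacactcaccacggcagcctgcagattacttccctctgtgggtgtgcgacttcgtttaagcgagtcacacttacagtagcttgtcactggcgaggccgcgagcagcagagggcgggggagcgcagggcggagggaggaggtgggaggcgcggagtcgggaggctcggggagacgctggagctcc
Ephb3: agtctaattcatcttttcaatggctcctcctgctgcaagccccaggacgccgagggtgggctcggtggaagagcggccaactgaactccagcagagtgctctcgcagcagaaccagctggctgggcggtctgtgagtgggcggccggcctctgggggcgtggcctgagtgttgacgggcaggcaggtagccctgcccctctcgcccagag
Ephb2: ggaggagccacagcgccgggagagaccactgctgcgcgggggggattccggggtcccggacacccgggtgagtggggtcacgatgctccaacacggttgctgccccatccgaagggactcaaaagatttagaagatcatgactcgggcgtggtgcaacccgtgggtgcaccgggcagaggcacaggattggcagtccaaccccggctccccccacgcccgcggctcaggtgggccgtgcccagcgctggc
Epha2: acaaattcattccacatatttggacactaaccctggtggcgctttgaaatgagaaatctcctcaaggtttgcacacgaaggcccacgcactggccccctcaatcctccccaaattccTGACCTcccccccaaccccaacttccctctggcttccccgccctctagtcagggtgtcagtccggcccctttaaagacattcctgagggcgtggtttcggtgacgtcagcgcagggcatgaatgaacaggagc

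AGGTCA is the core of many nuclear receptor sites, and Nr6a1 is known to bind it as a direct repeat without a spacer. It was searched on both strands over the 250 bases before each start, in 11 promoters covering 10 of 10 genes, and it matched 1 of them, Epha2, where it lies 133 bases before the start on the reverse strand and so reads TGACCT. It was in 14.0% of all 32851 RefSeq promoters and in 10.3% of the 12482 promoters of genes tested. The direct repeat, with 2 AGGTCA and no base between, was in 0.00609% of all promoters and in 0 of the 11, and TCAAGGTCA, a longer form that contains AGGTCA, was in 0.387% and in 0 of the 11. The 2 other motifs searched were CTTTGAT, a core bound by the Wnt effectors of the TCF/LEF family, in 3.21% of all promoters, and TTTATG, a core bound by Cdx proteins, in 10.8%. Neither was in any of the 11. These are matches of letters in a short window, and binding was not measured.

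Levels differed widely within the family before any genotype was considered. Levels are compared between genes only per length, as CPM per kilobase of the exons counted. In wildtype tailbuds Epha1 led the 10 genes at 47.9 ± 1.9 (SD, n = 4), followed by Epha4 at 37.4 ± 3.2 and Epha2 at 30.0 ± 4.6. The leaders were therefore all EphA receptors. Efnb1, Ephb3, Ephb2 and Efnb2 followed at 11.8 ± 1.4, 9.25 ± 0.71, 8.47 ± 0.61 and 5.99 ± 0.35 CPM per kilobase. Efna5 was at 2.49 ± 0.15, Epha7 at 1.17 ± 0.18 and Epha5 lowest at 0.237 ± 0.013. Neighbours in this order whose wildtype ranges overlapped were Epha4 with Epha2, Efnb1 with Ephb3, and Ephb3 with Ephb2. The other neighbours did not overlap. Epha5 has the longest exons of the set (16739 bases) within a gene of 362.6 kb, at chr5:84054761-84417382 on the reverse strand.

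Over the whole family of 22 genes the highest level per length was that of Ephb4, the receptor of veins, at 78.7 CPM per kilobase in wildtype, with Efna1 next by mean at 50.2. The wildtype libraries of Efna1 (34.75 to 72.78) overlapped those of Epha1 (45.95 to 49.6). Epha3, Epha6, Epha8 and Epha10 did not exceed 0.304 CPM in any library and were not tested. Summed by class per kilobase, EphA receptors came to 116.8 ± 6.8 in wildtype and 121.2 ± 14.96 in transgenic libraries, and EphB receptors to 101.3 ± 5.4 and 101.0 ± 8.2. Ephrin-A ligands came to 107.8 ± 19.5 and 114.0 ± 23.8, and ephrin-B ligands to 28.2 ± 2.0 and 28.2 ± 0.9. In each of the 4 classes the libraries of the genotypes overlapped.

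**Figure D1:**
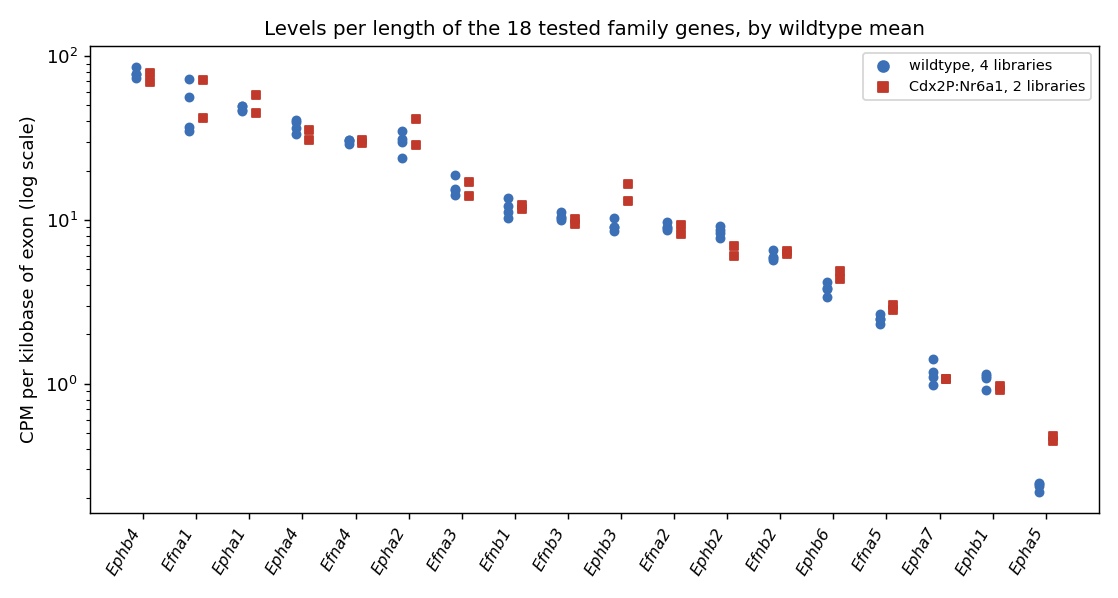
Level of each of the 18 tested family genes in CPM per kilobase of exon (log axis), with 1 point per library, in the order of the wildtype mean. The wildtype (n = 4, circles) and Cdx2P:Nr6a1 (n = 2, squares) points overlap for most genes, while the transgenic points lie above all wildtype points for Epha5, Ephb3, Ephb6 and Efna5 and below them for Ephb2.

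Of the 10 genes, 2 were higher in Cdx2P:Nr6a1 tailbuds at an adjusted p under 0.05, the receptors Epha5 and Ephb3, and 0 were lower. Over all 12733 genes tested 203 (1.59%) were called, 100 of them higher (0.785%) and 103 lower (0.809%), so 2 of 10 stands beside a background of 1.59%, for genes picked with earlier results known. Of the 12 remaining family genes 8 were tested and 0 were called by edgeR, DESeq2 or limma voom, with 1 at an unadjusted p under 0.05. At an unadjusted p under 0.05 there were 4 of the 10, Epha5, Ephb3, Ephb2 and Efna5, against 1342 of all 12733 genes tested. In the same 4 genes both transgenic libraries lay beyond all 4 wildtype libraries, above them in 3 and below them in Ephb2, where 18.6% of all genes tested were separated in either direction. The median absolute log2 fold change was 0.20 for the 10 genes and 0.063 for all genes tested. By sign, 7 of the 10 were higher and 3 lower. In bulk tissue, a change in the share of cells that express a gene and a change in its RNA per cell cannot be told apart.

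**Figure D2:**
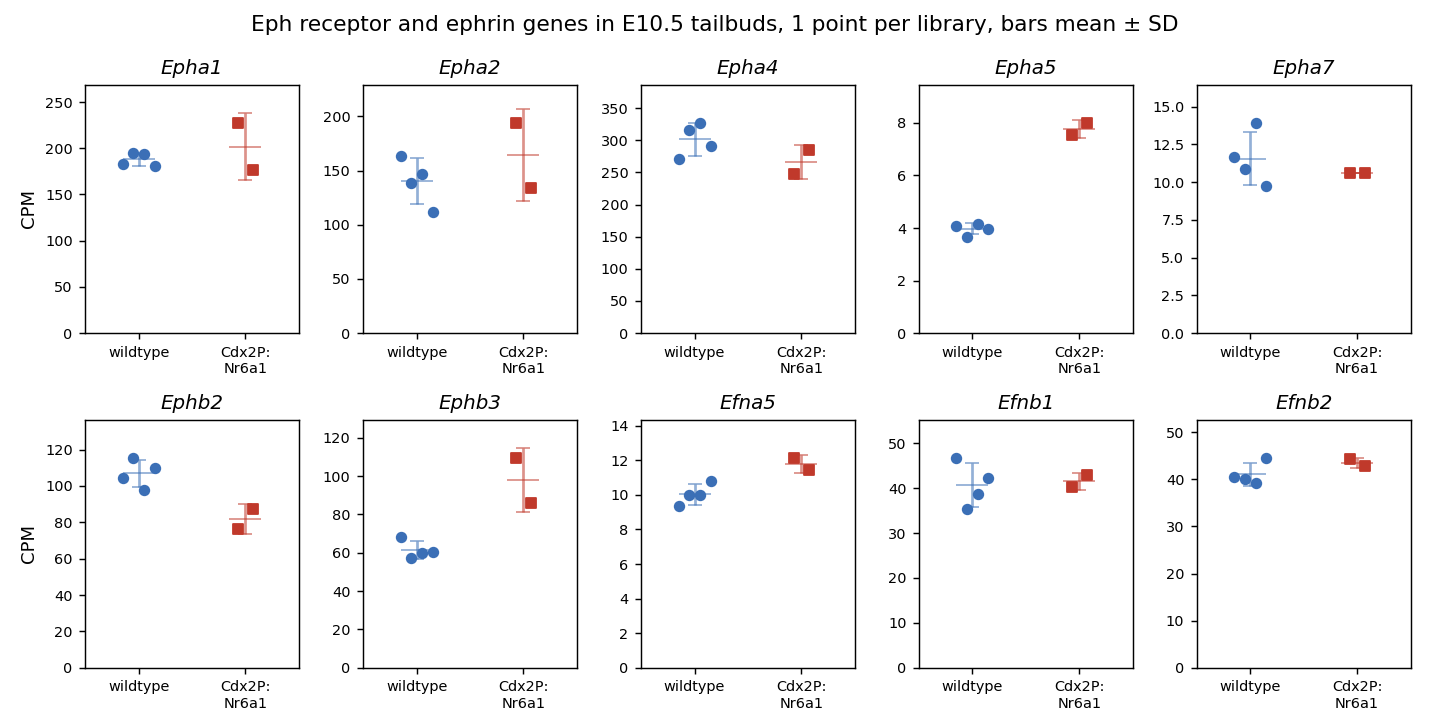
CPM of the 10 genes in each library, with each axis starting at 0, circles for wildtype (n = 4), squares for Cdx2P:Nr6a1 (n = 2) and bars for the mean ± SD. Epha5 was at 3.671 to 4.149 in wildtype and at 7.533 and 8.008 in the transgenic libraries, and Ephb2 is the gene whose transgenic points lie below all wildtype points.

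Epha5, a receptor known for axon mapping in the developing nervous system, rose. The authors had already listed it, as a gene enriched in neuromesodermal progenitors, among those raised both here and in tailbuds lacking Gdf11. Its CPM was 4.088, 3.671, 4.149 and 3.981 in the wildtype libraries and 7.533 and 8.008 in the transgenic ones. Within each genotype the libraries were near each other, and the gap between genotypes was larger than the spread within them. The log2 fold change was 0.96 ± 0.11 (SE; 95% interval 0.72 to 1.20; edgeR adjusted p = 0.004382), a fold of 1.95. These CPM rest on 179 to 538 counts a library, the lowest of the 10 genes. The exact permutation test over libraries gave p = 0.0667, the smallest that its 15 arrangements allow, here and for Ephb3, Ephb2 and Efna5. Without Cdx2P:Nr6a1 replicate 2 the log2 fold change was 0.91 and the call was lost (edgeR adjusted p = 0.06155).

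Epha5 rose from a low level and remained a small part of the EphA RNA. Per kilobase it went from 0.237 ± 0.013 to 0.464 ± 0.020, and its share of the EphA class from 0.204% to 0.387%. Epha7, a receptor known with Efna5 from closure of the neural tube, had a CPM of 11.65, 10.85, 13.93 and 9.762 in wildtype and 10.62 and 10.61 in the transgenic libraries, inside the wildtype range (log2 fold change -0.13, 95% interval -0.44 to 0.18; edgeR adjusted p = 0.8761). The ratio of Epha5 to Epha7 per kilobase, a pair chosen after their values were seen, was 0.176 to 0.241 in wildtype and 0.419 and 0.446 in the transgenic libraries (exact permutation p = 0.0667, two-sided).

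The 3 abundant EphA receptors were not called, and the transgenic libraries overlapped the wildtype range in each. Epha1, a receptor of epithelia, was at 182.9, 194.8, 193.8 and 180.5 CPM in wildtype and at 227.6 and 176.1 in the transgenic libraries, which thus held the highest and the lowest value (log2 fold change 0.10, 95% interval -0.10 to 0.29; edgeR adjusted p = 0.8442). Of its exon bases 6.01% overlap Zyx on the opposite strand. Epha2, an epithelial receptor also known from the notochord and primitive streak, was at 163.6, 139.0, 146.7 and 112.0 CPM in wildtype and at 194.2 and 134.1 in the transgenic libraries (log2 fold change 0.22, 95% interval -0.14 to 0.58; edgeR adjusted p = 0.7768). Its spread was wide in both groups, with a wildtype coefficient of variation of 15.3% against 3.92% for Epha1. Both genes were highest in Cdx2P:Nr6a1 replicate 1, and without that library both fold changes turned negative, to -0.09 and -0.07.

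Epha4, which binds ligands of both classes and marks the boundary of the next somite to form, came second of the 10 per length. It was at 270.6, 316.7, 327.2 and 291.1 CPM in wildtype and at 247.0 and 285.1 in the transgenic libraries, so that 1 transgenic library lay below the wildtype range and 1 within it. The log2 fold change was -0.18 (95% interval -0.38 to 0.01; edgeR adjusted p = 0.498), a difference not resolved at this number of libraries.

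Ephb3 and Ephb2, both EphB receptors known as Wnt targets that sort epithelial cells in the gut and guide axons, had fold changes of opposite sign. Ephb3 was at 68.18, 57.18, 59.98 and 60.24 CPM in wildtype and at 109.7 and 86.15 in the transgenic libraries. The groups did not overlap, but the transgenic libraries were further apart than any wildtype pair. The log2 fold change was 0.67 ± 0.10 (SE; 95% interval 0.45 to 0.89; edgeR adjusted p = 0.01309), a fold of 1.59. Without Cdx2P:Nr6a1 replicate 1, the higher library, it was 0.49 and the call was lost (edgeR adjusted p = 0.1016). Ephb3 is a compact gene at chr16:21204755-21223305 on the forward strand, and none of its exon bases overlap another gene.

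Ephb2, at chr4:136647539-136835988 on the reverse strand, was at 104.2, 115.6, 97.73 and 109.8 CPM in wildtype and at 76.03 and 87.52 in the transgenic libraries, all wildtype values being above both. The log2 fold change was -0.39 ± 0.08 (SE; 95% interval -0.57 to -0.21), a fold of 0.763, and the edgeR adjusted p of 0.05469 missed the threshold. The gene therefore sits at the edge of a call: 8 of 16 alternative analyses without a replicate block called it, over adjusted p from 2.391e-08 to 0.345, and in all 16 its fold change was negative. Per kilobase Ephb3 and Ephb2 were close to each other in wildtype, at a ratio of Ephb3 to Ephb2 of 1.242, 0.9394, 1.165 and 1.042, whereas in the transgenic libraries the ratio was 2.739 and 1.869. This pair was also chosen after the values were seen, and the exact permutation p was 0.0667, two-sided. As a share of EphB RNA per kilobase, Ephb3 went from 9.12 ± 0.39% to 14.6 ± 1.3% and Ephb2 from 8.38 ± 0.80% to 6.47 ± 1.16%.

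**Figure D3:**
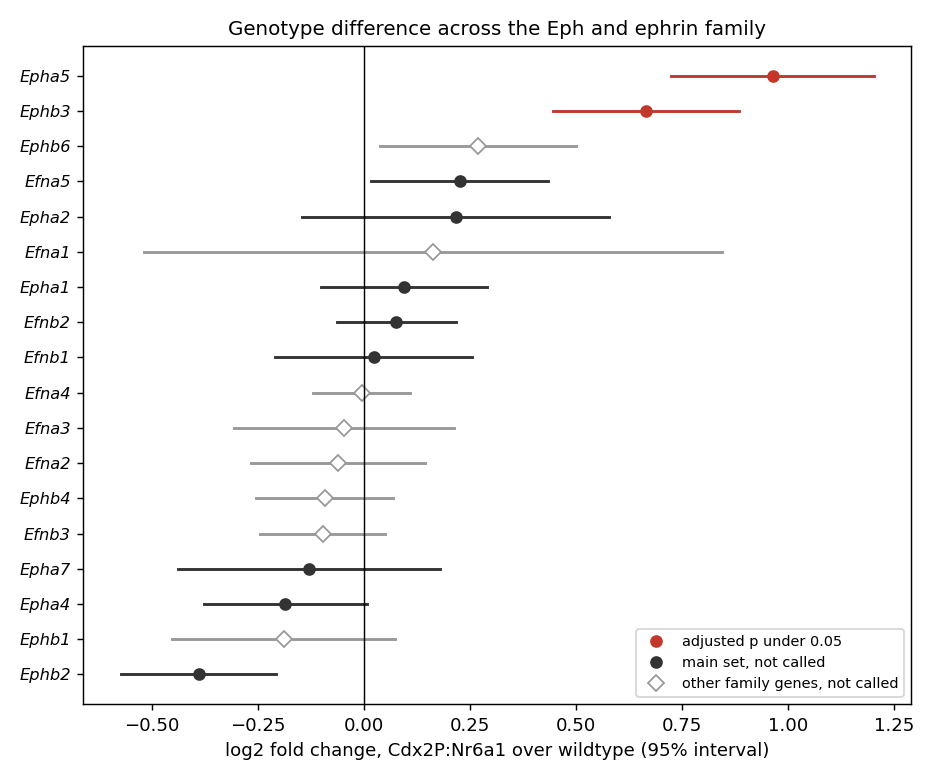
Log2 fold change of Cdx2P:Nr6a1 over wildtype for the 18 tested family genes, with the 95% interval as a line. Epha5 (0.96) and Ephb3 (0.67) pass the adjusted threshold, the interval of Ephb2 (-0.39) excludes 0 without passing it, and the wide interval of Efna1 (-0.52 to 0.85) is the least precise.

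The other EphB receptors were not called. Ephb4 was at 342.6 to 397.0 CPM in wildtype and at 364.1 and 324.5 in the transgenic libraries, with a log2 fold change of -0.09, and it made up 77.7% and 73.5% of EphB RNA per kilobase. Ephb6, which lacks kinase activity, was at 14.56, 14.33, 12.86 and 15.81 CPM in wildtype and at 18.31 and 16.52 in the transgenic libraries, above all of wildtype (log2 fold change 0.27 ± 0.10; edgeR adjusted p = 0.3579). Ephb1, an axon guidance receptor, had a log2 fold change of -0.19. Across the 22 family genes, 18 were tested, 2 were called and 5 were separated, 4 of them above wildtype and 1 below. Over all genes tested 1.59% were called and 18.6% were separated in either direction.

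Of the 3 ligands in the set of 10, 0 were called by edgeR or under any of those 16 alternatives, and 1 had an unadjusted p under 0.05. Efna5, a ligand of Epha5 and Epha7, was at 9.336, 10.01, 9.996 and 10.81 CPM in wildtype and at 12.16 and 11.42 in the transgenic libraries. The groups did not overlap, but the gap was small. The log2 fold change was 0.23 ± 0.09 (SE; 95% interval 0.02 to 0.44; edgeR adjusted p = 0.419). Efnb1, the X-linked ephrin, was at 46.82, 35.26, 38.73 and 42.16 CPM in wildtype and at 40.23 and 42.84 in the transgenic libraries, inside the wildtype range (log2 fold change 0.02, 95% interval -0.21 to 0.26; edgeR adjusted p = 0.9734). Efnb2, a ligand of arteries and of the posterior part of somites, was at 40.43, 40.02, 39.20 and 44.61 CPM in wildtype and at 44.22 and 42.75 in the transgenic libraries (log2 fold change 0.08, 95% interval -0.06 to 0.22; edgeR adjusted p = 0.803).

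The remaining ligands gave log2 fold changes near 0, at -0.06 for Efna2, -0.05 for Efna3, -0.01 for Efna4 and -0.10 for Efnb3. Genes on the opposite strand overlap 14.1% of the exon bases of Efna3 and a smaller share of those of Efna4, and reads there may be shared. Efna1 was variable among embryos of the same genotype, at 133.2, 63.59, 102.8 and 67.82 CPM in wildtype and at 131.4 and 76.19 in the transgenic libraries, and no difference was resolved (log2 fold change 0.16 ± 0.30, SE; edgeR adjusted p = 0.935).

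**Figure D4:**
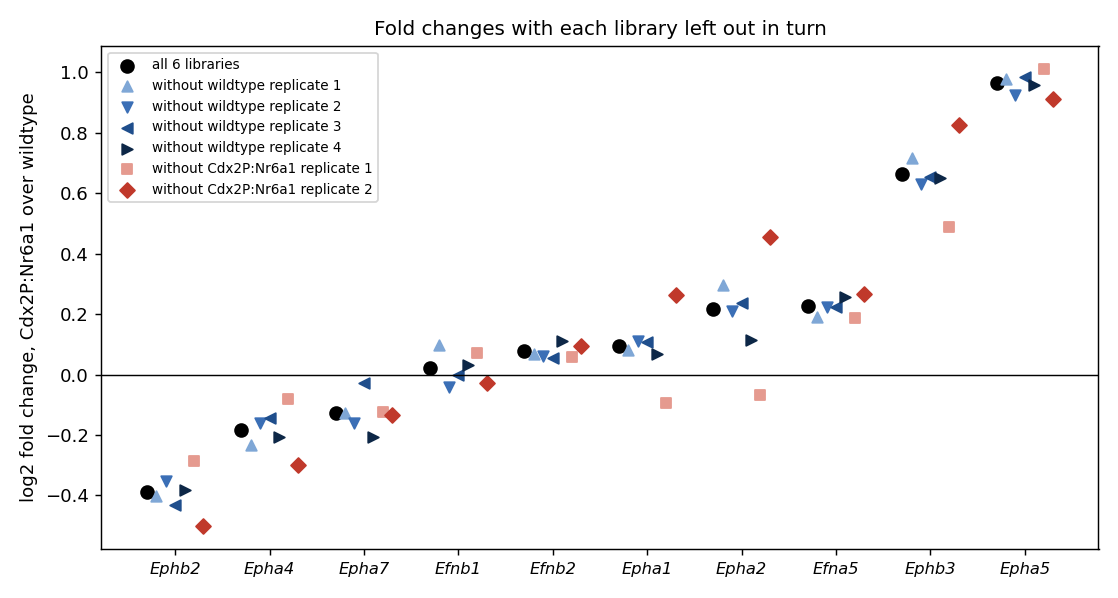
Log2 fold change of the 10 genes with all 6 libraries (black) and with each library left out in turn. Epha5 stays between 0.91 and 1.01 and Ephb3 between 0.49 and 0.83, Ephb2 stays between -0.50 and -0.29, and Epha1, Epha2 and Efnb1 cross 0.

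Genes known to act with Eph receptors and ephrins, such as exchange factors, adaptors, Src family kinases and the protease Adam10, were examined as a list of 33. Of these 31 were tested, and 0 were called by edgeR, with 1 at an unadjusted p under 0.05, the adaptor Grb7, beside 1342 of 12733 over all genes. Their fold changes ran from -0.16 to 0.30 with a median of 0.02, and 4 were separated, beside 18.6% of all genes tested. DESeq2, the edgeR exact and likelihood ratio tests and limma voom also called 0. Summed, they came to 2867 to 2917 CPM in wildtype and to 2837 and 2903 in the transgenic libraries. In a list of 16 regulators of the somite boundary, where Epha4 and Efnb2 are known to act, 10 were tested and 0 were called by edgeR. At an unadjusted p under 0.05 there were 3, all lower, again beside 1342 of 12733 over all genes, and DESeq2 and the edgeR exact and likelihood ratio tests each called 1, Tbx6, where limma voom called 0. These were Tbx6, a determinant of presomitic mesoderm (249.4 to 209.1 CPM as group means, log2 fold change -0.26, adjusted p = 0.1068), the Notch ligand Dll3 (-0.14, adjusted p = 0.1901) and fibronectin, Fn1 (-0.19, adjusted p = 0.2864). Mesp1 was at 0 counts and Mesp2, Ripply1, Ripply2 and Tbx18 near 0, genes known to peak where somites form. The median over the 10 was -0.04.

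Markers of the tissues in the sample are given here beside the results. Over all genes tested 1.59% were called, 18.6% were separated in either direction and 1342 of 12733 had an unadjusted p under 0.05. Of 8 neuromesodermal progenitor markers 2 were called higher, Cdx2 and Cyp26a1, which breaks down retinoic acid (log2 fold change 0.73), and 3 were above all of wildtype. By sign 5 were higher and 3 lower, T (log2 fold change -0.18), Wnt3a (-0.10) and Grsf1 (-0.02). That list summed to 2005 to 2265 CPM in wildtype and to 2494 and 2092 in the transgenic libraries. It was highest in Cdx2P:Nr6a1 replicate 1, as were Epha1, Epha2, Ephb3 and Efna5. Of 8 presomitic mesoderm markers 1 was called lower, Aldh1a2, which makes retinoic acid (log2 fold change -1.25), 5 had an unadjusted p under 0.05 and 3 were below all of wildtype. By sign 5 were lower and 3 higher. All 8 presomitic mesoderm markers summed to 1287 to 1388 CPM in wildtype and to 1234 and 1183 in the transgenic libraries, below all of wildtype, as was Ephb2. DESeq2 and the edgeR exact and likelihood ratio tests called 1 more gene in each list, Nkx1-2 and Tbx6. The part of these cells in the values of the Eph and ephrin genes was not tested.

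Tissues beside the axial progenitors were also read from their markers, beside the same shares over all genes tested (1.59% called, 18.6% separated). The 8 gut endoderm markers summed to 500.7, 416.6, 471.0 and 534.5 CPM in wildtype and to 620.1 and 535.9 in the transgenic libraries, the second only just above the highest wildtype library, with all 8 detected in every library, 7 of 8 positive in fold change and 1, Krt18, called higher by edgeR and limma voom. DESeq2 and the edgeR exact and likelihood ratio tests called Krt8 as well. Most of this sum lay in the epithelial genes Cdh1, Cldn6, Epcam, Krt8 and Krt18, so it is not a measure of gut endoderm alone. The transcription factors Sox17, Foxa1 and Foxa2 had wildtype means of 3.83, 6.33 and 4.95 CPM. Their log2 fold changes were 0.02, -0.05 and 0.29, and none was called. The 8 surface ectoderm markers summed to 185.5, 150.2, 180.6 and 207.4 CPM in wildtype and to 221.1 and 192.9, with 0 of 7 tested called by edgeR, DESeq2 or limma voom and 1 at an unadjusted p under 0.05. Both lists were highest in Cdx2P:Nr6a1 replicate 1, as were Epha1, Epha2, Ephb3 and Efna5, and Ephb6 and Efna4 of the other family genes. The part of these tissues in those values was not tested. Among 8 neural tube markers, of which Zic1 was at 0 in 2 libraries, 4 were tested and 2 were called higher, Sox1 (0.8949 to 1.415 CPM in wildtype, 2.95 and 5.091 in transgenic libraries) and Sox3, both also called by DESeq2 and limma voom. Sox1 passed the filter, which asks for CPM above 2 in at least 2 libraries, only through the transgenic libraries. That it was tested thus depended on its being high there. Nes, the marker with the most counts in the list, was at 290.2, 317.6, 298.5 and 277.4 CPM in wildtype and at 271.3 and 225.0 in the transgenic libraries, below all of wildtype (log2 fold change -0.26; edgeR adjusted p = 0.1875), and DESeq2 called it lower. All 8 summed to 317.1 to 356.0 CPM in wildtype and to 316.2 and 282.9. Sox1, Sox3 and Epha5 were all highest in Cdx2P:Nr6a1 replicate 2, and the part of neural tissue in the Epha5 values was not tested. Endothelial markers, with 0 of 8 called by edgeR, DESeq2 or limma voom and 0 at an unadjusted p under 0.05, summed to 220.2 to 276.3 CPM in wildtype and to 225.6 and 283.3 in the transgenic libraries, the latter above the wildtype range. Hindlimb and lateral mesoderm markers summed to 2.7 to 4.334 CPM in wildtype and to 1.951 and 7.472. Macrophage markers summed to 14.63 to 34.25 and to 15.95 and 50.35, and notochord markers to 60.04 to 80.99 and to 87.79 and 71.06. Somite markers summed to 89.29 to 96.96 and to 82.54 and 93.25. Erythroid markers, at 8312 to 20150 in wildtype, stayed within that range. The part of these tissues in the Eph and ephrin values was not tested.

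Within the embryos low in Y-linked transcripts, Epha5 was at 4.088, 3.671 and 3.981 CPM in wildtype and at 7.533 with the transgene, and within those high in them at 4.149 and 8.008. The same contrast gave 68.18, 57.18 and 60.24 against 109.7 CPM, and 59.98 against 86.15 CPM, for Ephb3. With this split as a term in the fit, log2 fold changes were 0.94 for Epha5 (edgeR adjusted p = 0.01258), 0.70 for Ephb3 (adjusted p = 0.01104) and -0.38 for Ephb2 (adjusted p = 0.1036).

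For the 2 genes called, the tested genes whose log2 CPM over the 6 libraries was most like theirs were listed by Pearson r, as a description over points that share the same genotype split. For Epha5 these were Cyp1b1, a cytochrome P450 (r = 0.987), Gm28876 (r = 0.986) and Dtna, which encodes alpha-dystrobrevin (r = 0.985). Their log2 fold changes were 2.51, 0.70 and 0.66. For Ephb3 they were Rassf7 (r = 0.997), Cdc42ep5 (r = 0.992) and Cdx2 (r = 0.991), with log2 fold changes of 0.21, 0.24 and 0.35. Cdx2, the caudal homeobox gene whose promoter drives the transgene, was at 303.2, 286.2, 296.1 and 295.5 CPM in wildtype and at 410.0 and 346.6 in the transgenic libraries (edgeR adjusted p = 0.03403). It was, like Ephb3, above wildtype in both and higher in Cdx2P:Nr6a1 replicate 1 than in replicate 2.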

How the data were processed

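RNA (50 ng per tailbud) was made into TruSeq Stranded mRNA libraries, read singly over 75 bp. The authors aligned reads with STAR to mm10 and deposited whole-number counts per gene with exon coordinates and lengths. Their table of fold changes and p-values was not used. CPM was computed from column totals, and CPM per kilobase from the deposited exon length. Genes with a count above 10 and CPM above 2 in at least 2 libraries (12733) were tested with edgeR 4.0.16 in R 4.3.3 (TMM normalization, quasi-likelihood test, 4 wildtype against 2 Cdx2P:Nr6a1 libraries, Benjamini-Hochberg over all genes tested, called under 0.05). Replicates were separate embryos. The script was tested on simulated data. Alternatives used limma 3.58.1 and DESeq2 1.42.0. The 22 family genes had the same exons as GENCODE M21. Genes named were the family, called genes of the pathway lists (there were 0, so those with an unadjusted p under 0.05 were named after their values were seen), Nr6a1, markers beside a result and the 3 genes most like each called gene. The 10 genes and the lists were chosen with earlier results of these data known. Whether counting used strand is not given in the sources used here. Figures were drawn with matplotlib 3.10.9.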

Additional observations from a re-analysis of the deposited data

How the results depend on the processing

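Each fold change was recomputed under 17 alternatives. Epha5 and Ephb3 were each called in 15 of 16 without a replicate block, with log2 fold changes of 0.91 to 1.01 and 0.49 to 0.83. Ephb2 became called under the likelihood ratio test (-0.39, as under the exact test), DESeq2 (-0.39), limma voom (-0.39), robust estimation (-0.39), filterByExpr (-0.40) and no filter (-0.39), and without wildtype replicate 3. Without a filter Epha2 was also called (0.21). Leaving out single libraries moved log2 fold changes over -0.50 to -0.29 for Ephb2, -0.094 to 0.26 for Epha1 and -0.066 to 0.46 for Epha2, both negative without Cdx2P:Nr6a1 replicate 1, and -0.042 to 0.097 for Efnb1, which was negative without wildtype replicate 2 (-0.042), wildtype replicate 3 (-0.0012) or Cdx2P:Nr6a1 replicate 2 (-0.029). The number of the 10 genes called was 4 with no filter and 1 to 3 with a library left out, and the number of family genes called was the same at 4 and 1 to 3. With 1 transgenic library left, that library was assumed to vary like the wildtype ones.

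Over all genes 203 were called, 100 higher and 103 lower. The likelihood ratio test called 401 (213 and 188), the exact test 391 (213 and 178), DESeq2 477 (244 and 233) and no filter 876 (508 and 368). Leaving out single libraries gave 61 to 175 (27 to 82 higher, 22 to 93 lower), with 61 when either transgenic library was left out. Causes were not tested. Without length scaling 3 of the 10 genes held their rank. With the replicate number as a replicate block 442 were called (236 and 206), and Ephb2 with them at -0.44 (edgeR adjusted p = 0.001797). The labels do not say that numbers mark shared litters, and the genotypes share only 2 of them. Deviations of same-numbered libraries correlated at 0.317 and -0.283. With 2 transgenic libraries the deviations of 1 mirror those of the other, so these values cannot show whether the numbers pair the samples. The 2 transgenic embryos limit every comparison.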

Other observations

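Efna1 had the widest spread among wildtype embryos of the 18 family genes tested, and its values are set beside those of segmentation clock genes chosen after the values were seen. Lfng, a clock gene that modifies Notch, was at 241.0, 44.66, 120.3 and 46.99 CPM in wildtype and at 223.8 and 66.34 in the transgenic libraries, 5.4-fold between the highest and the lowest library. Efna1 spanned 2.09-fold, and it ordered the 6 libraries exactly as Lfng did, from wildtype replicate 1 and Cdx2P:Nr6a1 replicate 1 at the top to wildtype replicate 2 at the bottom. Of the 18 tested family genes it was the 1 with that order. Hes7, another clock gene, was at 121.2, 53.97, 69.55 and 65.76 CPM in wildtype and at 116.8 and 41.94 in the transgenic libraries, highest in the same 2 libraries. Epha2 spanned 1.73-fold and had wildtype replicate 1 highest and wildtype replicate 4 lowest within its genotype.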
